A study of Mus musculus with 2 samples.

Results

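Lactoferrin (Ltf), Slpi and 7 further genes for secreted, iron-binding or milk-associated proteins of the mammary gland are described here in mouse mammary basal cells that received a short hairpin RNA against Cdk14. The 9 genes were taken by symbol from a table of 15239 genes (Ltf, Slpi, Lcn2, Trf, Csn3, Mfge8, Wfdc18, Xdh and Plin2), and all 9 were found. They were picked for their function with their values in these libraries already known, so their differences are descriptions. The study sequenced polyadenylated RNA of mammary gland cells, labelled as normal, in 2 libraries. One carried a scrambled hairpin (Scramble control) and the other a Cdk14 hairpin (Cdk14-sh). The labels give no strain, age, promoter, number of animals or culture time. The series design names a human breast cancer line and the extraction protocol names retinas, whereas the identifiers in the table are mouse genes and the sample labels name mammary basal cells.

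With 1 library per group no difference has a replicate check, and no test or p-value is given. The unit is FPKM, fragments per kilobase of exon, scaled to the library's total. The values correspond to totals of 10186924 reads in Scramble control and 10177185 in Cdk14-sh. Values in parentheses after a fold are 95% intervals for counting error alone, and they compare these libraries, not the conditions. Cdk14 was at 2.06 FPKM in Scramble control and 0.713 in Cdk14-sh, 2.90-fold lower (2.21 to 3.91). With 1 FPKM added to both values, as in the counts below, Cdk14 was within 2-fold. The basal keratin gene Krt14 stood at 1199 and 994 FPKM and the smooth muscle actin gene Acta2 at 1095 and 696, and the luminal keratin genes Krt8 (456 and 223) and Krt18 (382 and 106) were present in both libraries as well. Of 12 retina genes, Gnat1 (1.88 and 0.130 FPKM) and Opn1sw (1.59 and 1.65) were listed.

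Milk is made by the alveolar luminal cells of the mammary gland under prolactin, which acts through Jak2 and Stat5. Besides caseins and fat globules wrapped in plasma membrane, the epithelium secretes iron-binding proteins and protease inhibitors that limit bacterial growth and tissue damage. Several of these defence genes are also made outside lactation, by ductal epithelium, in inflammation and in the involuting gland, and some, Ltf and Lcn2 among them, are granule proteins of neutrophils.

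The 9 genes did not move as a block. The level of Ltf in Cdk14-sh was 0.534% of that in Scramble control, Slpi was at 5.0%, Trf at 25.1% and Xdh at 32.2%. Csn3 (96.8%), Lcn2 (93.8%) and Mfge8 (115%) were near the control level, and Plin2 (164%) and Wfdc18 (279%) were above it. The log2 ratio, taken after adding 1 FPKM to both values, ranged from -6.00 for Ltf to 1.44 for Wfdc18 with a median of -0.09, against 0.02 for the 12830 genes whose libraries averaged 1 FPKM or more, called measured below. All 9 were measured. On that scale 3 of them (Ltf, Slpi and Trf) were at least 2-fold lower in Cdk14-sh, where 13.5% of all measured genes were. Only Wfdc18 was at least 2-fold higher, where 14.2% of all measured genes were. These shares stand beside the counts as background, since the genes were chosen on this contrast. With 1 FPKM added, Ltf had the lowest log2 ratio of all 12830 measured genes, and Slpi was the 7th lowest. These ranks depend on the amount added. With 5 FPKM added Ltf was at -4.19 and no longer the lowest, as Ctla2a (149 and 2.15 FPKM) was below it. Trf was among the lowest 2.83% with 1 FPKM added.

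**Figure D1:**
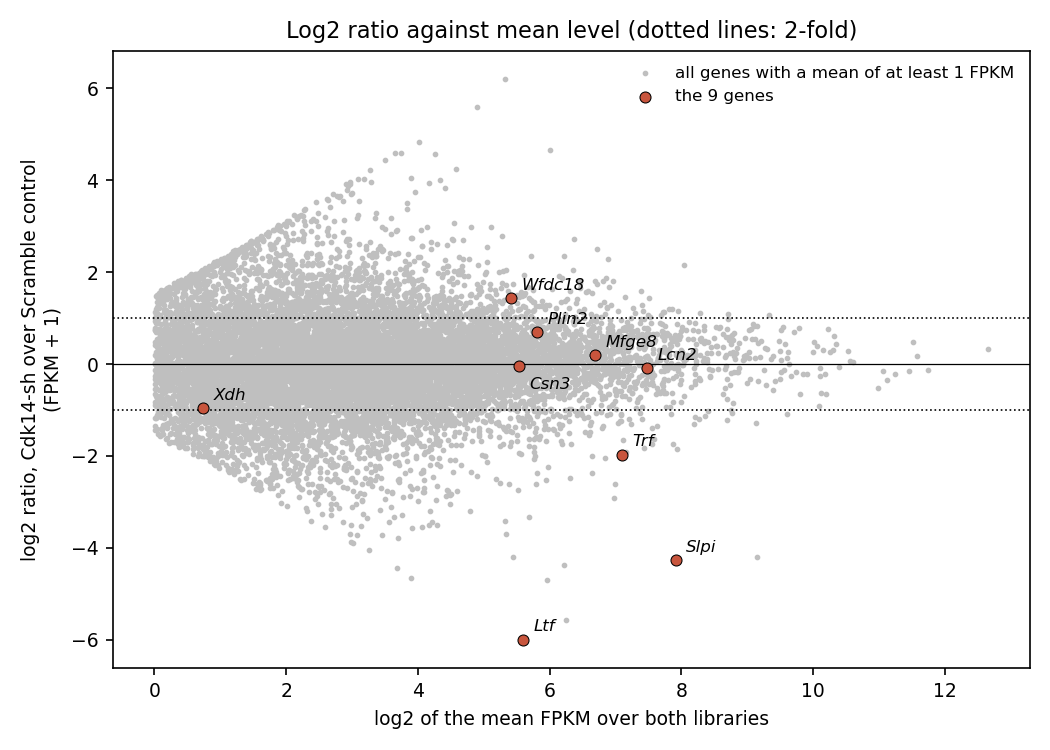
Log2 ratio of Cdk14-sh over Scramble control (FPKM + 1, vertical axis) against the log2 of the mean FPKM (horizontal axis). Grey points are the 12830 measured genes and red points the 9 genes named; Ltf lies at the bottom at -6.00, Slpi at -4.26, and Lcn2, Csn3 and Mfge8 lie near 0.

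Promoter sequences are shown for 4 of the genes, chosen because they stand for the range of the values: Ltf and Slpi, which were the lowest, Lcn2, which was near even, and Wfdc18, which was the highest. Each is the stretch of 250 bases before the transcription start in RefSeq (GRCm38.p6), written from 5′ to 3′ on the strand of the gene. For Ltf, Slpi and Lcn2 the GENCODE M21 bounds given with their values start further upstream than the RefSeq start. The Slpi and Lcn2 stretches therefore lie inside those bounds, and the Ltf stretch overlaps them at its end. The coordinates are chr9:111019042-111019291 (plus strand) for Ltf, chr2:164356508-164356757 (minus) for Slpi, chr2:32387740-32387989 (minus) for Lcn2 and chr11:83708754-83709003 (plus) for Wfdc18. Capitals mark the matches to any of 6 searched motifs on either strand.
Ltf: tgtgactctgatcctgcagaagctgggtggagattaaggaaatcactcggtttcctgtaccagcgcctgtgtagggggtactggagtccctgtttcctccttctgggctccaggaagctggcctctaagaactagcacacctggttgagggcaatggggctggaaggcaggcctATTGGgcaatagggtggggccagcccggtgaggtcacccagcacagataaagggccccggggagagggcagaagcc
Slpi: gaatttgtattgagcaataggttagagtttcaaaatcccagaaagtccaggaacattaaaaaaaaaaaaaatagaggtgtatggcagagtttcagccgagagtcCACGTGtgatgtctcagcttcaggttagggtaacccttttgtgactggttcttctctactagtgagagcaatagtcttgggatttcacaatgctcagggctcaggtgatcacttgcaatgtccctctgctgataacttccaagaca
Lcn2: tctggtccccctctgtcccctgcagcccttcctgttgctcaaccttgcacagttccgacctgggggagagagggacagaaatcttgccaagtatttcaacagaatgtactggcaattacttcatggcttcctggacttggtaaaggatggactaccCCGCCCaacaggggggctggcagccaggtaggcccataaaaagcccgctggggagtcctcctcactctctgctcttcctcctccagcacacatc
Wfdc18: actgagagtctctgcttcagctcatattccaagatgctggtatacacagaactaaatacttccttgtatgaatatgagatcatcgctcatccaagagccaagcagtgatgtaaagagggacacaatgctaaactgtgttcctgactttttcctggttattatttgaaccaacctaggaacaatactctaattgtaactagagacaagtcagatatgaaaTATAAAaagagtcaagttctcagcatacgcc

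The printed promoters held 1 match each, and none was shared among them. The Ltf stretch holds the CAAT box (letters CCAAT) from 76 to 72 bases before the start, and 33.8% of all 32851 promoter stretches in the table hold one. The Slpi stretch has an E-box (letters CACGTG) at 146 to 141 bases (6.02% of all), the Lcn2 stretch a GC box (letters GGGCGG) at 94 to 89 bases (32.7%) and the Wfdc18 stretch the letters TATAAA, the core promoter box of that name, at 31 to 26 bases (12.4%). In the Ltf and Lcn2 stretches the match lies on the other strand, so its capitals are the reverse complement. Promoters of Mfge8 and Plin2 were matched as well. No promoter stretch was available for Trf, Csn3 or Xdh, so those genes were not searched. Mfge8 had 4 GC boxes in its last 61 bases and Plin2 a CAAT match at 73 to 69 bases. In none of the 6 promoters was there a match to the other motifs searched, which were TTCNNNGAA, a site type bound by Stat proteins (7.02% of all stretches), and the C/EBP type of site TTGCNNCAA (1.74%). Their base composition ranged from 38.4% G and C in Wfdc18 and 42.0% in Slpi to 59.2% in Ltf and 65.2% in Mfge8, with a median of 52.4% over all promoters.

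The iron-binding genes Ltf and Trf were both lower. Lactoferrin, the product of Ltf, withholds iron from bacteria in milk and other secretions. Ltf (ENSMUSG00000032496, chromosome 9 from 111019271 to 111042767 on the plus strand, GRCm38) stood at 95.9 FPKM in Scramble control and at 0.513 in Cdk14-sh. The recovered read numbers were 3371 and 18. By level Ltf ranked 695th of 15239 genes in Scramble control and 13572nd in Cdk14-sh, 187-fold lower (98.4 to 410.0). Transferrin, the product of Trf, carries iron in blood and is also made by mammary epithelium. Trf (chromosome 9, 103204001 to 103230444, minus strand) stood at 219 and 55.2 FPKM, 3.98-fold lower (3.70 to 4.28). It shares 63.5% of its 3320 exonic bases with the gene model Gm20425 on the same strand, which was at 227 and 59.3 FPKM, so the reads of these cannot be told apart. Trf was 2.29 times as high as Ltf in Scramble control and 108 times as high in Cdk14-sh.

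The genes that take up, store and export iron were closer to even. Counts of this and the later lists are read beside all measured genes, 13.5% of them at least 2-fold lower and 14.2% higher. Of 25 such genes 21 were listed and 19 measured, with 1 lower by 2-fold or more and 1 higher by as much, a median log2 ratio of -0.28, and 13 below 0. Both counts were 0 when a mean of 5 FPKM was required. Hfe, which regulates iron sensing at the cell surface, was at 4.73 and 0.990 FPKM, 4.77-fold lower (2.85 to 8.43). Hmox1, which releases iron from haem, was at 222 and 116 FPKM, and Cp, the ferroxidase ceruloplasmin, was at 43.4 and 25.4. The ferritin genes Fth1 (2385 and 1650.1 FPKM) and Ftl1 (772 and 690.0) had the highest levels of the list. The transferrin receptor gene Tfrc was at 27.9 and 22.8 FPKM. At the high end, Slc22a17, a receptor for the Lcn2 protein, was at 0.364 and 9.12 FPKM, 25.1-fold higher (13.1 to 61.7). Aco1, which doubles as an iron regulatory protein, was at 8.38 and 16.7, and Fbxl5, which degrades its counterpart Ireb2, at 15.1 and 21.8.

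The protease inhibitors and antimicrobial genes went in different directions. Slpi encodes secretory leukocyte protease inhibitor, which blocks neutrophil elastase and has antibacterial activity. It lies on chromosome 2 (164354070 to 164389095, minus strand) and was at 459.8 FPKM in Scramble control and 23.0 in Cdk14-sh, 20.0-fold lower (16.9 to 23.9), from 5526.5 and 276 reads. In Scramble control it was the 85th highest gene in the table and the highest of the 9. In Cdk14-sh it was at rank 2964. Mir7678, a microRNA gene within the bounds of Slpi, was at 1081 and 58.1 FPKM, and these values are uncertain because its reads can come from Slpi. Wfdc18, a small secreted protein with the same type of whey acidic protein domain as Slpi, lies on chromosome 11 (83709015 to 83711348) and was at 22.4 and 62.5 FPKM, 2.79-fold higher (2.30 to 3.42). Slpi was 20.6 times the level of Wfdc18 in Scramble control, and in Cdk14-sh Wfdc18 was 2.72 times the level of Slpi. Of 21 other genes with such a domain Wfdc2 alone was listed, at 8.18 and 4.14 FPKM, 1.98-fold lower (1.2 to 3.41).

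Lcn2 was nearly the same in both libraries. Lipocalin 2 binds bacterial siderophores and so keeps iron from bacteria by another route than lactoferrin. Lcn2 (chromosome 2, 32384633 to 32388252, minus strand) was at 183 FPKM in Scramble control and 172 in Cdk14-sh, 1.07-fold lower (1.01 to 1.13), from 4903 and 4593 reads. The ratio of Lcn2 to Ltf was 1.91 in Scramble control and 336 in Cdk14-sh. Of the other lipocalins, Apod was at 219 and 160.3 FPKM, C8g at 2.56 and 4.01, and the retinol carrier gene Rbp4 at 2.57 and 19.2, 7.48-fold higher (4.47 to 12.8).

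Other secreted defence genes and genes of the acute phase and involution were mixed. Of 22 other antimicrobial genes 6 were measured, 2 of them lower by 2-fold or more and 1 higher by as much, with a median log2 ratio of -0.56 and 5 below 0. The chemokine gene Cxcl14 was at 793 and 325 FPKM and the ribonuclease gene Rnase4 at 110.0 and 46.2, while the lectin gene Chil1 was at 884 and 741. S100a8, the only higher one, was at 0.283 and 2.83 FPKM from 2 and 20 reads. Among genes of the acute phase and of mammary involution, 7 of 17 measured were lower by 2-fold or more and 2 were higher by as much (median -0.85, with 12 below 0). These are 41.2% and 11.8%, beside 13.5% and 14.2% of all measured genes. Lrg1, a secreted leucine-rich glycoprotein, was at 75.9 and 4.95 FPKM, 15.3-fold lower (11.0 to 22.5). The complement gene C3 was at 14.4 and 3.36 FPKM, and Lbp, which presents endotoxin to Cd14, at 9.88 and 2.40. Socs3, a feedback inhibitor of Stat3, was at 291 and 94.0 FPKM. Igfbp5, a binding protein for insulin-like growth factors that is high in involution, was at 96.4 and 432 FPKM, 4.47-fold higher (4.30 to 4.66), and Tgfb3 was at 10.6 and 23.1. With equal column sums 8 genes of this list were lower by 2-fold or more and 1 was higher by as much.

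Few markers of neutrophils, whose granules hold the products of Ltf and Lcn2, were listed. Of 14 markers, S100a8 and Itgam were listed, summed to 0.324 FPKM in Scramble control and 3.14 in Cdk14-sh. The other 12, including Ngp, Camp, Mpo and Elane, are not among the genes listed. The table lists only genes above 0 in both libraries, so a gene read in one library alone is missing too, and the levels of these 12 in Scramble control are unknown. The part of neutrophil RNA in the values of Ltf and Lcn2 was not tested.

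Csn3 and Mfge8 were near even. Csn3 encodes kappa casein, which stabilises the casein micelle. It lies on chromosome 5 (87925579 to 87932665) and was at 47.1 FPKM in Scramble control and 45.6 in Cdk14-sh, from 1992 and 1926 reads, 1.03-fold lower with an interval that includes equality (0.945 to 1.13). Other caseins were far below it per length. Csn2, the beta casein gene, was listed at 0.0567 FPKM in both libraries from 4 reads each, Csn1s1 at 0.0314 and 0.0629 FPKM from 2 and 4 reads, and the alpha-lactalbumin gene Lalba at 0.134 and 0.804 FPKM, and the whey gene Wap was not among the genes listed. Mfge8 encodes lactadherin, a milk fat globule protein that bridges apoptotic cells to integrins of phagocytes. On chromosome 7 (79133768 to 79149060), it was at 95.8 and 110.2 FPKM, 1.15-fold higher (1.09 to 1.22). Its integrin receptor genes were within 2-fold, in both directions: Itgav was at 25.5 and 17.6 FPKM, Itgb3 at 6.09 and 4.03, and Itgb5 at 11.7 and 16.4.

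Xdh was lower and Plin2 higher, and the proteins of both associate with milk fat droplets. Xanthine dehydrogenase, made by Xdh, catalyses the last steps of purine breakdown and also helps to envelop milk fat droplets. Xdh (chromosome 17, 73883895 to 73950196) was at 2.53 and 0.814 FPKM, 3.10-fold lower (2.14 to 4.6), from 236 and 76 reads. With the 1 FPKM added its log2 ratio was -0.96, just inside the 2-fold limit, and with 0.1 FPKM added it was -1.52. Plin2 encodes the coat protein of cytosolic lipid droplets. On chromosome 4 (86648386 to 86670060), it was at 42.5 and 69.7 FPKM, 1.64-fold higher (1.5 to 1.8).

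**Figure D2:**
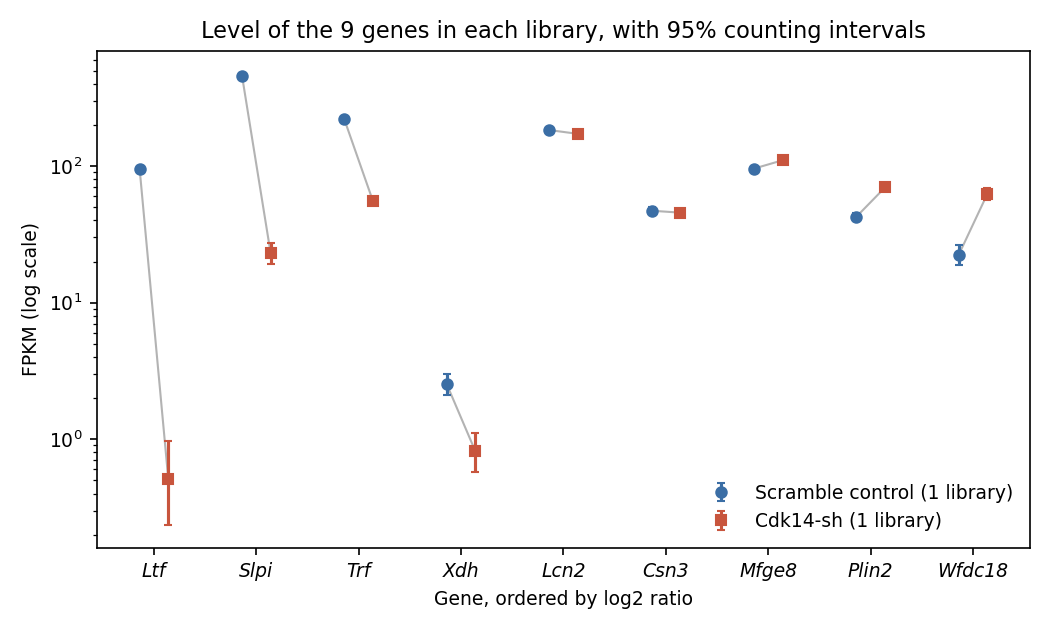
FPKM on a log axis for each gene in Scramble control (blue circles) and Cdk14-sh (red squares), 1 library each, with bars for the 95% counting interval and genes ordered by log2 ratio. The drop from 95.9 to 0.513 FPKM in Ltf spans more of the axis than any other pair, and the points of Lcn2 and Csn3 lie almost level.

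Milk fat and lipid droplet genes were mixed, with 5 of 19 measured (26.3%) lower by 2-fold or more, 2 (10.5%) higher by as much and a median of -0.25. Over all measured genes these shares were 13.5% and 14.2%. Cd36, a fatty acid transporter of fat globule membranes and of capillaries, was at 223 and 28.8 FPKM, 7.73-fold lower (7.05 to 8.48). Lpin1, a phosphatidate phosphatase, was at 14.3 and 1.75, and Pnpla2, the main triglyceride lipase of droplets, at 22.2 and 4.98. G0s2, an inhibitor of that lipase, was at 4.06 and 17.6 FPKM, and Dgat2, which makes triglyceride, at 7.51 and 20.1, while Dgat1 was at 13.3 and 5.63. Of the genes for other milk proteins, 7 of 16 were measured, 2 of them lower by 2-fold or more and 1 higher by as much (median -0.41). Pthlh, a hormone of lactation, was at 39.2 and 6.92 FPKM, the mucin gene Muc1 at 28.9 and 9.47, and the lipase gene Cel at 3.55 and 13.5. Of the purine and molybdenum cofactor genes around Xdh, 3 of 11 measured were at least 2-fold lower. Mocos, which activates the cofactor of xanthine dehydrogenase, was at 5.79 and 0.0341 FPKM from 190 reads and 1 read, Nt5e at 7.78 and 1.01, and Aox1, a close relative of Xdh, at 5.49 and 1.67. Gphn, at 3.09 and 7.26 FPKM, was the only gene of that list at least 2-fold higher on the log2 scale with 1 FPKM added. Under each of the 4 other scalings it was within 2-fold on that scale. With 0.1 FPKM added, 3 genes of the list were at least 2-fold higher.

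Prolactin signalling genes were mixed. Of 11 measured regulators 4 (36.4%) were lower by 2-fold or more and 2 (18.2%) higher by as much, with a median of -0.34. Over all measured genes these shares were 13.5% and 14.2%. The kinase gene Jak2 was at 28.6 and 5.02 FPKM, 5.70-fold lower (4.70 to 6.90). Stat5a was at 18.1 and 4.80 FPKM, 3.76-fold lower (3.18 to 4.48), whereas its close relative Stat5b was at 0.603 and 5.45, 9.04-fold higher (5.45 to 15.9). The Stat5-induced inhibitors Cish (8.33 and 0.811 FPKM) and Socs2 (22.2 and 10.1) were lower. The prolactin receptor gene Prlr was at 0.154 and 1.77 FPKM from 24 and 276 reads, under the mean of 1 FPKM. Nr3c1, the glucocorticoid receptor gene, was at 11.4 and 32.8 FPKM.

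**Figure D3:**
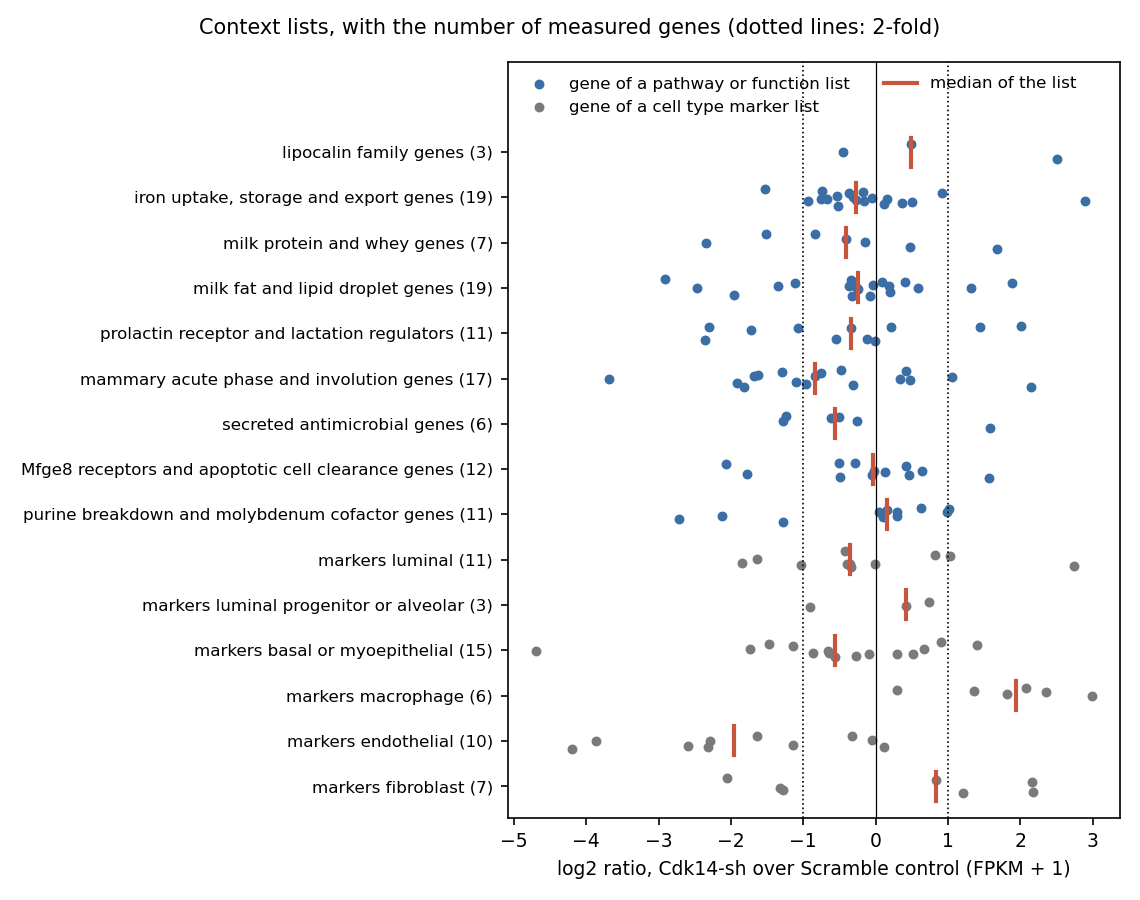
Log2 ratio (FPKM + 1) of each measured gene in lists read beside the 9 genes, which are left out of them. Lists with only 1 or 2 measured genes, such as the neutrophil, adipocyte and retina markers, are not drawn. Blue points are genes of function lists, grey points genes of cell type marker lists and red bars list medians; acute phase genes have a median of -0.85, endothelial markers of -1.96 and macrophage markers of 1.95.

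Markers of other cell types differed between the libraries in both directions. Of 10 measured endothelial markers 7 were lower by 2-fold or more in Cdk14-sh and 0 were higher by as much, and their summed level was 230 FPKM in Scramble control and 62.0 in Cdk14-sh (11 of 12 listed). Of 10 adipocyte markers Fabp4 (94.3 and 8.45 FPKM) and Lipe (1.18 and 3.66) were listed, with Adipoq, Plin1 and Cidec not among the genes listed. Macrophage markers went the other way, with 5 of 6 measured at least 2-fold higher and a sum of 106 and 391 FPKM (8 of 14 listed). Luminal markers had 3 of 11 measured lower by 2-fold or more and 2 higher by as much, and summed to 1561 and 939 FPKM (15 of 16 listed). Luminal progenitor or alveolar markers, with the 9 genes left out, had 0 of 3 measured beyond 2-fold in either direction, a median of 0.42 and a sum of 20.0 and 25.6 FPKM (7 of 9 listed). Fibroblast markers had 3 of 7 measured lower by 2-fold or more and 3 higher by as much, and summed to 301 and 121 FPKM (7 of 10 listed). Basal markers, all 16 listed, had 4 of 15 measured lower by 2-fold or more and 1 higher by as much. Their median was -0.56, with 10 below 0, and they summed to 4955 and 3486 FPKM. The part of these differences in the values of Ltf, Slpi, Trf and Cd36 was not tested, and in bulk RNA fewer cells of a type and less RNA per cell cannot be told apart.

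The order of the levels among the 9 genes changed. In Scramble control it ran Slpi, Trf, Lcn2, Ltf, Mfge8, Csn3, Plin2, Wfdc18 and Xdh. The counting intervals of Ltf and Mfge8 overlapped, as did those of Csn3 and Plin2. In Cdk14-sh it ran Lcn2, Mfge8, Plin2, Wfdc18, Trf, Csn3, Slpi, Xdh and Ltf, with overlaps between Plin2 and Wfdc18, Wfdc18 and Trf, and Xdh and Ltf. Summed over the 9 genes the level was 1169 FPKM in Scramble control, 0.322% of the table, and 539 in Cdk14-sh, 0.142%. Slpi, Trf and Ltf made up 66.3% of the first sum and 14.6% of the second. The 6 other genes summed to 394 and 461 FPKM.

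The genes closest to Ltf in both levels, by distance on the log2(FPKM + 1) scale over 2 libraries, were Ctla2a (149 and 2.15 FPKM), the endothelial gene Plvap (83.0 and 3.56) and the smooth muscle actin gene Actg2 (120.3 and 3.66). Those closest to Slpi were Cd36 (values above), the chemokine gene Ccl2 (219.5 and 35.1) and Dpysl2 (169 and 31.7). Among those closest to Csn3 were Polr2k (47.8 and 44.7), a subunit gene of the RNA polymerases, and Ube2g1 (45.6 and 44.7), a ubiquitin-conjugating enzyme gene. The distances were at least 1.09 for Ltf and Slpi and at most 0.0522 for Csn3, so no other listed gene came close to the pair of levels of Ltf or Slpi.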

How the data were processed

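Messenger RNA of mouse mammary basal cells was measured in 1 Scramble control and 1 Cdk14-sh library. The submitters' processing notes name Bowtie 0.12.2, featureCounts (Subread 1.5.1), and mm8 as well as GRCm38 as builds, with no role. Strand use and the handling of multiply mapped reads are not given in the sources used here. As their processed data the authors deposited FPKM values, 1 column per library, in which no gene is at 0. Column names were matched to sample titles. Reads were recovered from FPKM times exonic length (GENCODE M21, GRCm38), with the commonest step taken as 2 reads. For 79.1% of the 15191 genes with a length they were multiples of 0.5 reads in both libraries (tolerance 0.01). Xdh was not among them, so its read numbers are approximate. Intervals take 2 reads as 1 fragment and are exact binomial (Clopper-Pearson) for a ratio, exact Poisson for a level. The log2 ratio used a pseudocount of 1 FPKM, which understates differences of low genes; folds are ratios of FPKM. The arithmetic was tested on simulated whole fragments, which do not test the assumption of 2 reads. Of 15 rows that repeat a symbol the highest was used in lists.

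The genes and lists were chosen with earlier results of these data known. Named are the 9 genes, Cdk14, up to 3 highest and 3 lowest and the most abundant genes of a list, and the genes of most like levels, of which 1 is not reported here. Others named, such as overlapping gene models, unmeasured casein genes and receptors, were chosen after their values were seen. Promoters were read from RefSeq (GRCm38.p6). Alternatives were pseudocounts of 0.1 and 5, 4 scalings, filters, fold limits, summed symbols and single reads as fragments, and, chosen after seeing the data, the count without Trf. Work was done in Python 3.11.15 with SciPy 1.17.1 and pandas 2.3.3.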

Additional observations from a re-analysis of the deposited data

How the results depend on the processing

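No paired analysis was possible because each group held 1 library, and no library could be left out. The count of the 9 genes at least 2-fold lower in Cdk14-sh was 3 and ranged from 2 (with a 4-fold limit, or without Trf, which was chosen after seeing the data) to 4 (with a pseudocount of 0.1 FPKM, or a 1.5-fold limit). The count at least 2-fold higher was 1, but 2 with a 1.5-fold limit and 0 with a 4-fold limit, as the limits themselves imply. The log2 ratio of each of the 9 genes kept its sign under all 7 alternatives run on it, but these could not have changed it. A pseudocount cannot change a sign, and summed symbols left these values as they were. The scalings shifted the Cdk14-sh values by only -0.017 to -0.066 in log2, while the smallest positive log2 ratio was 0.20. Of the 63 values from these alternatives 59 stayed within the counting interval. The others were Ltf (-7.29 and -4.19) and Xdh (-1.52 and -0.37) with pseudocounts of 0.1 and 5. Over all genes, 1735 lower and 1828 higher became 612 and 677 with a pseudocount of 5, 909 and 946 with a mean of 5 FPKM required, 3141 and 3239 with a 1.5-fold limit, and 345 and 419 with a 4-fold limit. The counts with a mean of 5 FPKM are out of fewer genes, and the others are out of 12830. Over 177 values no list median changed sign, but 33 moved by 0.1 or more; that of the other milk protein genes (-0.41) was -0.07 without a filter, -0.26 with a pseudocount of 5 and -0.63 with a mean of 5 FPKM required. Of 220 counts over 10 function lists, 7 grew and 31 shrank by more than 1.5 times, 5 of them among the 80 counts under other scalings. Depth limits Ltf in Cdk14-sh (18 reads), so its fold has a wide interval, 118 to 316 with each read taken as a fragment.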

Other observations

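The nearest measured genes on either side of the 3 lowest genes, chosen by position after seeing the data, differed less than those genes in log2 ratio. Nearly any measured gene would, because these 3 genes are at or near the low end of all measured genes. Ccrl2, 11.7 kb from Ltf, was at 0.907 FPKM in Scramble control and 1.59 in Cdk14-sh, and Als2cl, 119 kb away on the other side, was at 2.69 and 2.17. Beside Slpi, Matn4 was at 8.89 and 5.53 FPKM and Stk4, 199 kb away, at 2.65 and 7.95. Beside Trf, Srprb was at 11.6 and 6.28 FPKM and Topbp1, 74.8 kb away, at 4.29 and 1.83. Beside Wfdc18, the highest of the 9 genes by ratio, the chemokine gene Ccl9 was at 0.0967 and 2.52 FPKM and Heatr6 at 3.15 and 1.45. The log2 ratio of Ccl9 was 1.68, from 3 and 78 reads, above the 1.44 of Wfdc18.

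Receptors that clear apoptotic cells, which act beside the Mfge8 product, had unlike values. Axl was at 88.1 FPKM in Scramble control and 20.3 in Cdk14-sh, 4.34-fold lower (3.95 to 4.79), while its relative Mertk was at 0.0453 and 2.11 FPKM, from 2 and 93 reads. Their ligand genes Gas6 (105 and 141 FPKM) and Pros1 (144 and 118) differed less. Of the 12 measured genes of this list 2 were lower by 2-fold or more and 1 higher by as much, with a median of -0.04. These shares (16.7% and 8.33%) stand beside 13.5% and 14.2% of all measured genes.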
